A study of Mus musculus with 2 samples.

Results

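The protocadherins, the largest family of cadherin-type adhesion proteins, were examined by mRNA-seq in the tunica muscularis, or muscle layers, of the mouse jejunum. Every gene symbol of the expression table that starts with Pcdh was taken, which gave 70 of the 18159 genes listed. Of these, 14 belong to the *Pcdha* cluster, 22 to the *Pcdhb* cluster, 22 to the *Pcdhg* cluster and 12 lie outside the clusters. The table holds 1 library of *Dnmt1*-WT and 1 library of *Dnmt1*-KO tissue from mice of the C57BL/6 background at 15 days of age. Both genotypes carry a transgene in which the promoter of *Myh11*, the smooth muscle myosin heavy chain gene, drives Cre recombinase and eGFP. In *Dnmt1*-KO mice this Cre deletes the floxed part of *Dnmt1*, the maintenance DNA methyltransferase. The deletion is confined to cells in which the *Myh11* promoter is or has been active, and to their descendants. The sample labels give one strain, with floxed *Dnmt1*, and one free-text description, naming the knockout, to both samples, and the genotype label and title were used to tell them apart. RNA of several male and female mice stands behind each genotype, and how it was combined is not stated. With 1 library per genotype there is no replicate check and no test, so each difference below compares 2 libraries and may be technical.

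Protocadherins hold cells together or apart by binding copies of themselves on neighbouring membranes. The clustered genes are best known from neurons, where each cell switches on its own set of isoforms and so tells its own branches from those of other cells. In the *Pcdha* and *Pcdhg* clusters each isoform has its own promoter and its own large variable exon, which is spliced to constant exons that all isoforms of the cluster share, whereas each *Pcdhb* gene is complete in itself. Choice among the promoters is linked to DNA methylation, which silences them, and to CTCF and cohesin, which loop the unmethylated ones to enhancers. A few C-type isoforms at the end of the *Pcdha* and *Pcdhg* clusters are set apart from this choice and are used more evenly by neurons. Non-clustered protocadherins are separate genes, of which the delta-1 and delta-2 groups differ in the motifs of their cytoplasmic tails.

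*Dnmt1* itself was listed at 11.58 FPKM in *Dnmt1*-WT, against 7.58 FPKM in *Dnmt1*-KO. FPKM is a fragment count divided by the length of the transcript and by the mapped total of the library. These values come from whole tissue, which also holds cells in which the *Myh11* promoter has never been active. They sum over all exons, so that reads of the exons left after the deletion count as well. All 7 smooth muscle markers were lower in the *Dnmt1*-KO library, against 49.1% of all genes, with ratios of *Dnmt1*-KO to *Dnmt1*-WT FPKM between 0.427 and 0.893. Of these, 2 had a ratio of 0.5 or less, against 4.98%. Fewer cells of a type and less RNA per cell cannot be told apart in such bulk samples.

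The share of protocadherins with similar FPKM in both libraries was near that of all genes. Of the 70 genes, 67 were above 0 FPKM in both, and 44 of these, or 65.7%, had a ratio within 1.5-fold in either direction, against 67.7% of all listed genes above 0 in both. By cluster this share was 53.8% for *Pcdha*, 52.4% for *Pcdhb*, 77.3% for *Pcdhg* and 81.8% for the non-clustered genes. In all, 30 had a ratio above 1 and 36 one below 1, against 50.3% and 49.1% of all genes. A ratio of 2 or more, here called at least doubled, was found for 2 of the 67, against 11.8% of all genes. A ratio of 0.5 or less, here called at most halved, was found for 3 of the 67, against 4.98% of all genes. Both together made 5 of 67, or 7.46%, against 16.7%. The doubled members were *Pcdhac1* and *Pcdhb5*, and the halved ones *Pcdhb2*, *Pcdhb19* and *Pcdh18*. Median centring here sets the median log2 ratio of the 12758 genes at 1 FPKM or more in both libraries, -0.03 as listed, to 0. With it the split was 4 doubled and 3 halved, and with equal FPKM sums it was 2 and 6. The median differed when the genes taken and the value added were both changed. Over all genes above 0 in at least 1 library, with 0.1 FPKM added, it was 0.02. Ratios past 2-fold are more frequent among weakly expressed genes, so members were also compared with genes of their own level. At a geometric mean of 0.1 to 1 FPKM, 2 of 26 members were at least doubled, against 32.9% of all genes at that level, and 1 was at most halved, against 12.1%. In this range 16 members were higher in *Dnmt1*-KO and 9 lower, against 62% and 36.3%. Between 1 and 10 FPKM none of 38 members was at least doubled, against 10.8%, and 2 were at most halved, against 4.08%, while 13 were higher and 25 lower, against 49% and 50.7%. None of the 3 members of 10 FPKM or more was past 2-fold in either direction, against 3.61% at least doubled and 2.41% at most halved. Only 1 member, *Pcdh8*, was above 0 in the *Dnmt1*-KO library alone, against 5.42% of the genes detected in either library. Only *Pcdha8* was above 0 in the *Dnmt1*-WT library alone, against 3.01%, and *Pcdhb1* was listed at 0 in both.

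**Figure D1:**
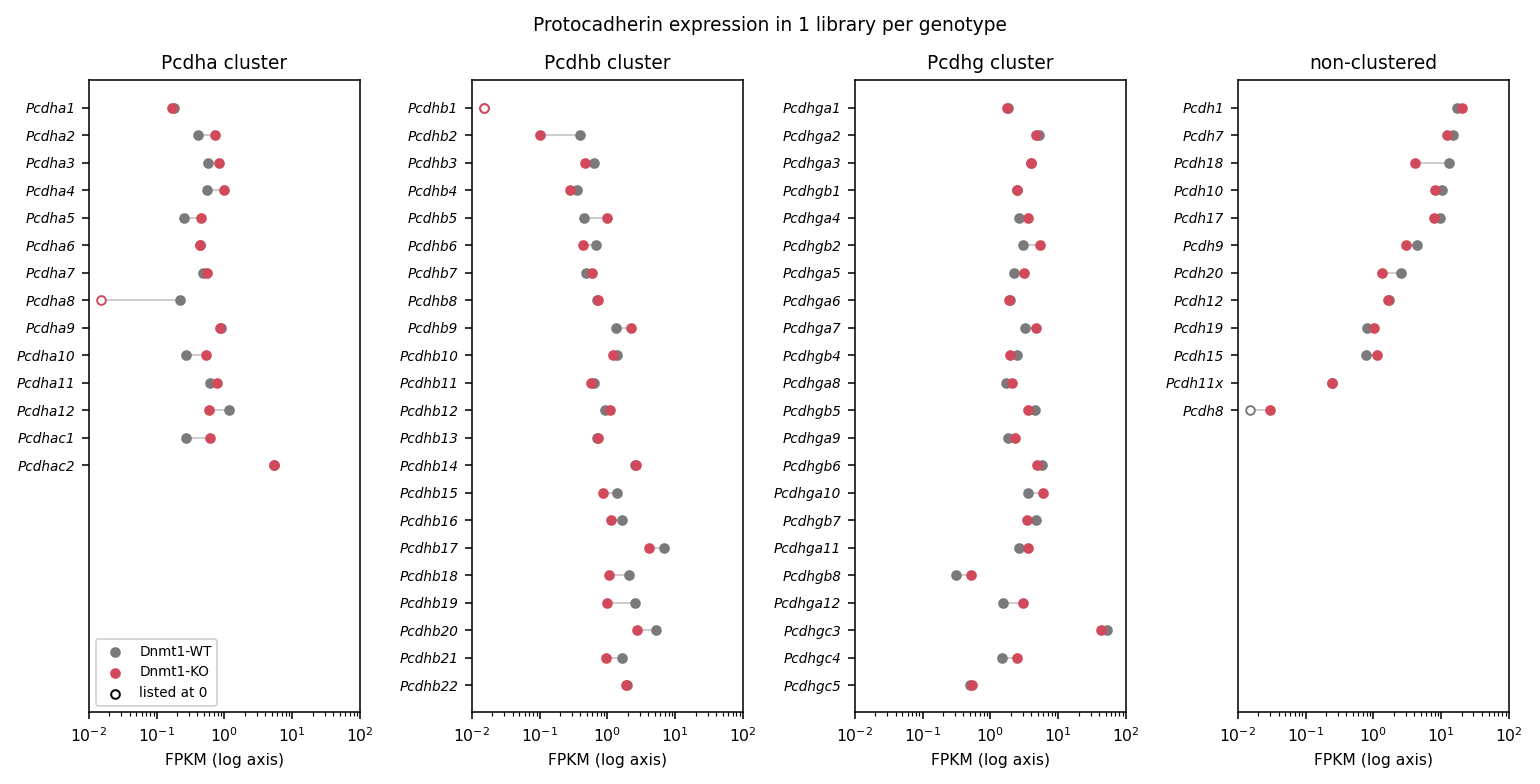
FPKM of each protocadherin on a log axis in the *Dnmt1*-WT library (grey) and the *Dnmt1*-KO library (red), with clustered genes in their order on the chromosome and the others by their *Dnmt1*-WT level. Open circles at the left edge are genes listed at 0. Most pairs of points lie close together, *Pcdhgc3* is the highest gene in both libraries, and *Pcdh18* has the widest gap among the non-clustered genes above 0 in both.

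**Figure D2:**
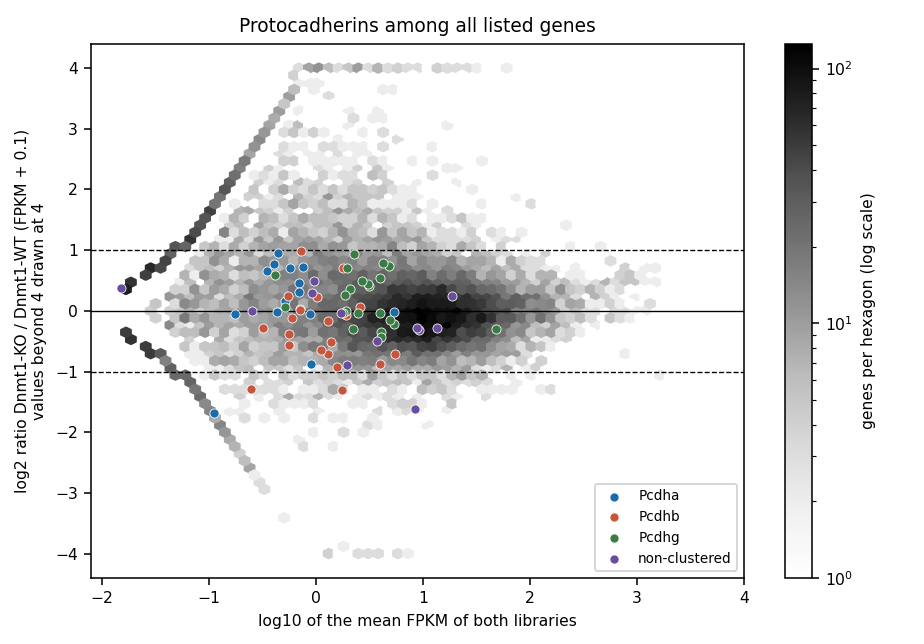
The log2 ratio of *Dnmt1*-KO to *Dnmt1*-WT, with 0.1 FPKM added to each value, against the log10 of the mean FPKM of both libraries. Grey hexagons count all genes above 0 in at least 1 library, coloured points are the protocadherins, dashed lines mark a ratio of 2 and of 0.5, and ratios beyond a log2 value of 4 are drawn at 4. No protocadherin lies above the upper dashed line on this scale and 4 lie below the lower one.

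The clusters lie on chromosome 18 of GRCm38, all on the plus strand. The *Pcdha* genes extend from 36930184 to 37187661, the *Pcdhb* genes from 37264938 to 37524479 and the *Pcdhg* genes from 37661793 to 37841873. In the GENCODE M21 annotation the 14 *Pcdha* isoforms have 4 exons each and share between 48.6% and 54.9% of their transcript with the others of the cluster. The 22 *Pcdhg* isoforms also have 4 exons and share between 41.7% and 45.9%. All 22 *Pcdhb* genes have a single exon, and in this annotation the exons of *Pcdhb21* and *Pcdhb22* overlap by 455 bases. Reads from the constant exons cannot be given to one isoform, so the FPKM of a single *Pcdha* or *Pcdhg* isoform depends on how the estimation divided them, and is uncertain. Reads from similar variable exons may also be divided. Of all stretches of 50 bases in the variable exon, a median of 14.7% recur in another member for *Pcdha* and 0.73% for *Pcdhg*. Over the whole single exon of the *Pcdhb* genes, untranslated sequence included, the median was 4.26%.

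In the *Pcdha* cluster the C-type isoform *Pcdhac2*, known for its part in the spacing of serotonergic axons, was the most abundant with 5.42 FPKM (*Dnmt1*-WT) and 5.32 FPKM (*Dnmt1*-KO). It alone made up 46.2% of the summed FPKM of the cluster in *Dnmt1*-WT and 41.5% in *Dnmt1*-KO. The other C-type isoform, *Pcdhac1*, was low, at 0.27 and 0.62 FPKM, and its ratio of 2.30 was the highest of all protocadherins. The 12 remaining isoforms, from which neurons choose, were weak in both libraries, between 0.18 and 1.18 FPKM in *Dnmt1*-WT and at most 0.97 FPKM in *Dnmt1*-KO. Among them *Pcdha12* had the highest *Dnmt1*-WT level and the lowest ratio, 0.508, with 1.18 FPKM in *Dnmt1*-WT and 0.6 FPKM in *Dnmt1*-KO. *Pcdha8* had 0.22 FPKM in *Dnmt1*-WT but was listed at 0 in *Dnmt1*-KO. The pattern was different for *Pcdha10*, at 0.27 and 0.53 FPKM with a ratio of 1.96. Similar ratios were seen for *Pcdha5* (1.80, from 0.25 and 0.45 FPKM), *Pcdha2* (1.78, from 0.41 and 0.73 FPKM) and *Pcdha4* (1.76, from 0.55 and 0.97 FPKM). *Pcdha1*, *Pcdha6* and *Pcdha9* had ratios of 0.944, 0.977 and 0.966. Of the 13 isoforms above 0 in both libraries, 8 were higher in *Dnmt1*-KO and 5 lower, and the number higher was between 8 and 11 under the scalings tried. Across genes of 0.1 to 1 FPKM, where most of these isoforms lie, 62% were higher in *Dnmt1*-KO. The summed FPKM of the cluster was 11.7 in *Dnmt1*-WT and 12.8 in *Dnmt1*-KO, a ratio of 1.09.

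The *Pcdhb* genes encode proteins with cadherin repeats like those of the other clusters but without a shared constant domain. Their sum was lower in the *Dnmt1*-KO library under every scaling tried, at 34.4 FPKM in *Dnmt1*-WT and 25.8 FPKM in *Dnmt1*-KO, a ratio of 0.749. Of the 21 genes above 0, 14 were lower in *Dnmt1*-KO and 7 higher, while over all genes 49.1% were lower. The most abundant was *Pcdhb17*, listed at 6.8 FPKM in *Dnmt1*-WT and 4.12 FPKM in *Dnmt1*-KO. It was followed by *Pcdhb20*, at 5.14 and 2.76 FPKM. *Pcdhb19* was at most halved, with 2.55 FPKM in *Dnmt1*-WT and 0.97 FPKM in *Dnmt1*-KO and a ratio of 0.380. *Pcdhb2*, a much weaker gene, had the lowest ratio of the family, 0.256, from 0.39 and 0.1 FPKM. *Pcdhb18* came next in the cluster, with 2.1 and 1.06 FPKM and a ratio of 0.505. In the opposite direction, *Pcdhb5* went from 0.45 FPKM in *Dnmt1*-WT to 0.99 FPKM in *Dnmt1*-KO, a ratio of 2.20. *Pcdhb9* was listed at 1.34 and 2.24 FPKM, a ratio of 1.67, and *Pcdhb7*, at 0.49 and 0.6 FPKM, had a ratio of 1.22. *Pcdhb12* was at 0.93 and 1.11 FPKM.

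The *Pcdhb* genes that were lower in the *Dnmt1*-KO library lay mostly towards the end of the cluster, a division drawn after the values were seen. Of the 9 genes from *Pcdhb14* to *Pcdhb22*, 8 had a ratio below 1, against 50.7% of all genes of 1 to 10 FPKM, where all 9 lie. Their median ratio was 0.606, and their summed FPKM was 25.7 in *Dnmt1*-WT and 16.3 in *Dnmt1*-KO. *Pcdhb14* was the exception, at 2.52 and 2.64 FPKM, with a ratio below 1 when scaled to the FPKM sum. Besides the genes above, this stretch holds *Pcdhb15* (1.38 and 0.85 FPKM), *Pcdhb16* (1.65 and 1.13 FPKM), *Pcdhb21* (1.64 and 0.96 FPKM) and *Pcdhb22* (1.94 and 1.85 FPKM). The 12 genes above 0 from *Pcdhb2* to *Pcdhb13* were divided evenly, with 6 higher and 6 lower, or 4 and 8 when scaled to the FPKM sum. Of genes of 0.1 to 1 FPKM, where most of these lie, 62% were higher and 36.3% lower. Their summed FPKM was 8.69 and 9.44. All 9 genes of the later stretch reached 1 FPKM in at least 1 library, whereas 3 of the earlier ones did, among them *Pcdhb10* at 1.37 and 1.21 FPKM. Position and level therefore cannot be told apart here.

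**Figure D3:**
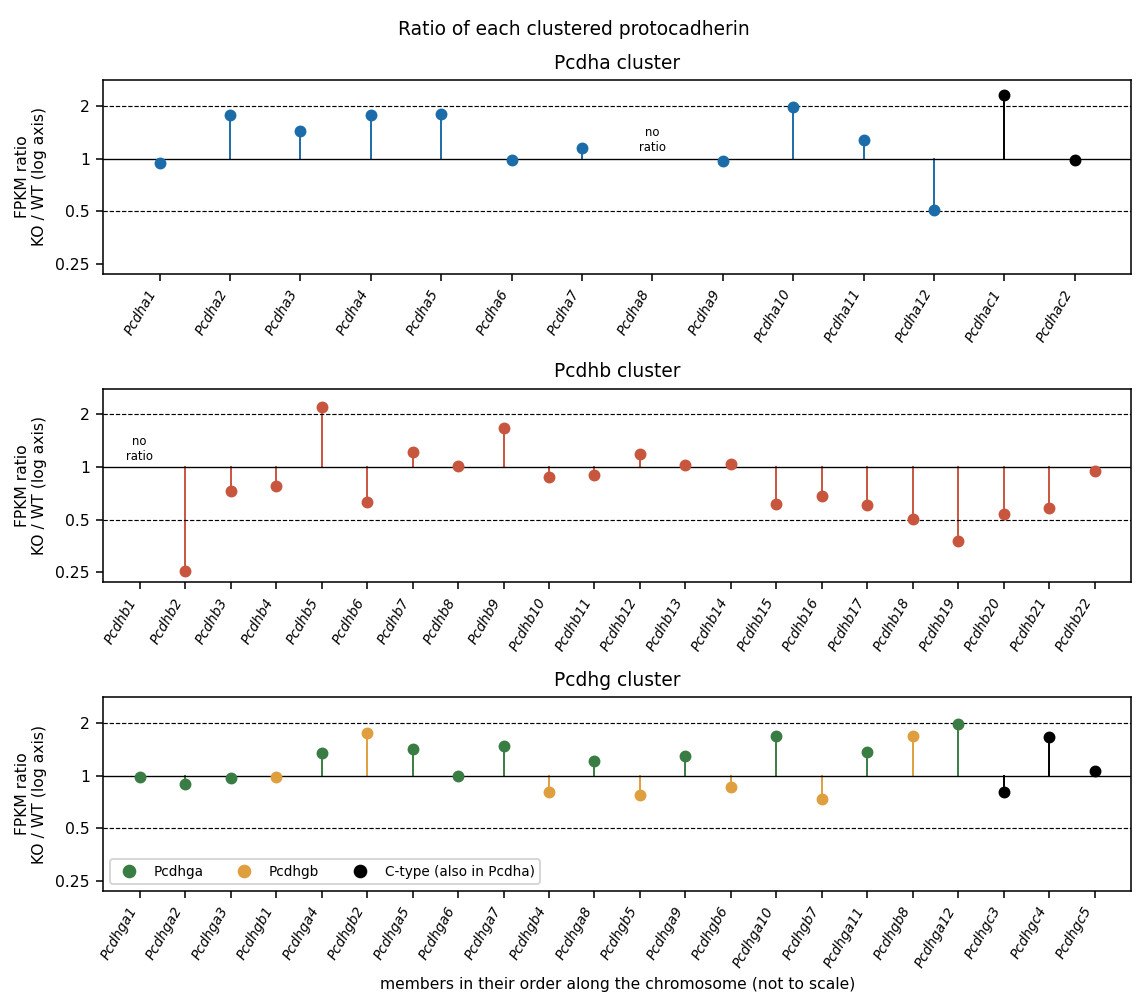
Ratio of *Dnmt1*-KO to *Dnmt1*-WT FPKM on a log axis for each clustered protocadherin, in its order along the chromosome and not to scale. Dashed lines mark ratios of 2 and 0.5, and *Pcdha8* and *Pcdhb1*, listed at 0 in at least 1 library, have no ratio. From *Pcdhb15* to *Pcdhb22* every point lies below 1. The only *Pcdhg* isoforms with a ratio under 0.9 are *Pcdhgb4*, *Pcdhgb5*, *Pcdhgb6*, *Pcdhgb7* and *Pcdhgc3*, and *Pcdhga2* lies at 0.9.

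The *Pcdhg* cluster was the most strongly expressed, with a summed FPKM of 110.3 in *Dnmt1*-WT and 108.6 in *Dnmt1*-KO. Of its isoforms 12 were higher in *Dnmt1*-KO and 10 lower, near the 50.3% and 49.1% of all genes, and these counts were 11 and 11 with scaling to the FPKM sum and 16 and 6 with the upper quartile. The summed FPKM had a ratio of 0.985, which turned to 1.01 and 1.03 with median centring over genes of at least 1 FPKM or with upper quartile scaling. One isoform, *Pcdhgc3*, held much of it, at 52.72 FPKM in *Dnmt1*-WT and 42.67 FPKM in *Dnmt1*-KO, and it was the most abundant protocadherin in both libraries. This C-type isoform is used widely outside the nervous system as well. Its share of the cluster was 47.8% in *Dnmt1*-WT and 39.3% in *Dnmt1*-KO. *Pcdhgc4*, the isoform on which the survival of neurons rests, was listed at 1.47 and 2.45 FPKM, a ratio of 1.67. *Pcdhgc5* was low, at 0.5 and 0.53 FPKM.

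The remaining *Pcdhg* isoforms fall into the A and B types by the sequence of their variable exon, and the types are interleaved along the chromosome. The comparison of the types was made after their values were seen. Among the 12 *Pcdhga* isoforms, 8 were higher in the *Dnmt1*-KO library and 4 lower, and at least 8 were higher under each scaling tried. Among all genes of 1 to 10 FPKM, where all 12 lie, 49% were higher. Their summed FPKM was 32.2 in *Dnmt1*-WT and 40.7 in *Dnmt1*-KO, which was 29.2% and 37.5% of the cluster. Their highest ratio was that of *Pcdhga12*, 1.97, at 1.52 and 3 FPKM. *Pcdhga10*, at 3.55 and 5.99 FPKM, had a ratio of 1.69 and was the most abundant of the type in *Dnmt1*-KO, while *Pcdhga2*, at 5.2 and 4.68 FPKM, was the most abundant in *Dnmt1*-WT and had the lowest ratio, 0.9. *Pcdhga7* was listed at 3.23 and 4.76 FPKM and *Pcdhga5* at 2.21 and 3.16 FPKM, with ratios of 1.47 and 1.43. Ratios of 1.21 to 1.37 were found for *Pcdhga11* (2.6 and 3.55 FPKM), *Pcdhga4* (2.65 and 3.57 FPKM), *Pcdhga9* (1.8 and 2.33 FPKM) and *Pcdhga8* (1.7 and 2.05 FPKM). *Pcdhga6*, *Pcdhga1* and *Pcdhga3* differed little, with ratios of 0.995, 0.978 and 0.973.

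Of the 7 *Pcdhgb* isoforms, 2 were higher in *Dnmt1*-KO and 5 lower, against 50.3% and 49.1% of all genes, and with median centring or upper quartile scaling 3 were higher. Their summed FPKM was 23.4 and 22.3, with a ratio of 0.953. The most abundant in *Dnmt1*-WT was *Pcdhgb6*, at 5.78 FPKM against 4.95 FPKM in *Dnmt1*-KO. The lowest ratio was 0.735, for *Pcdhgb7* at 4.71 and 3.46 FPKM, and that of *Pcdhgb5*, at 4.54 and 3.54 FPKM, was 0.780. *Pcdhgb4* was listed at 2.44 and 1.96 FPKM and *Pcdhgb1* at 2.51 and 2.46 FPKM. The exceptions were *Pcdhgb2*, at 3.07 and 5.38 FPKM with a ratio of 1.75, and the weak *Pcdhgb8*, annotated as a polymorphic pseudogene, at 0.31 and 0.52 FPKM. Up to 17.9% of the 50-base stretches of a *Pcdhgb* variable exon recur in another member, the highest share in the cluster and that of *Pcdhgb2* itself, so reads of these isoforms may have been divided among them.

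**Figure D4:**
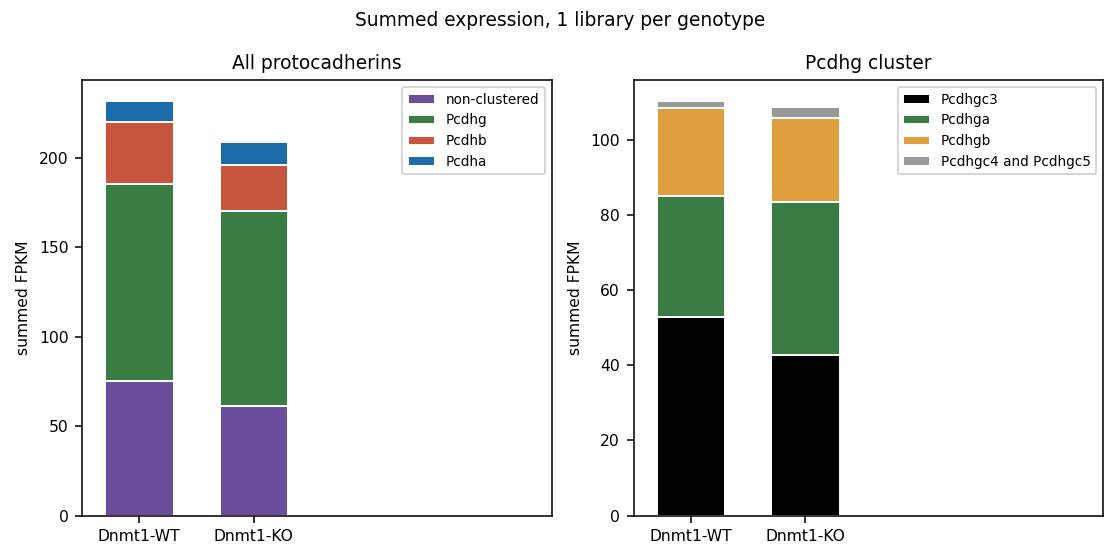
Summed FPKM of all protocadherins by cluster (left) and of the *Pcdhg* cluster by type of isoform (right) in the *Dnmt1*-WT and *Dnmt1*-KO libraries, as stacked bars. The *Pcdhg* bars are of nearly equal height, with 52.72 and 42.67 FPKM from *Pcdhgc3* and 32.2 and 40.7 FPKM from the *Pcdhga* isoforms.

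Outside the clusters, 3 of the 11 genes above 0 in both libraries were higher in *Dnmt1*-KO, 7 were lower and *Pcdh11x*, on the X chromosome, was listed at 0.25 FPKM in both. Over all genes 50.3% were higher and 49.1% lower. With upper quartile scaling 5 were higher and 6 lower. The summed FPKM of the 12 genes was 75.2 in *Dnmt1*-WT and 61.3 in *Dnmt1*-KO. Among the delta-1 genes, *Pcdh1*, studied as an adhesion gene of the airway epithelium, was the most abundant, at 17.21 and 20.44 FPKM, a ratio of 1.19. It lies on chromosome 18 as well, from 38185914 to 38212053 on the minus strand, beyond the end of the *Pcdhg* cluster. *Pcdh7*, which binds protein phosphatase 1 through its tail, was listed at 14.81 and 12.09 FPKM, a ratio of 0.816. *Pcdh9* had 4.38 and 3.08 FPKM, a ratio of 0.703.

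The delta-2 genes held the largest difference among non-clustered protocadherins above 0 in both libraries. *Pcdh18*, on the minus strand of chromosome 3 from 49743296 to 49757325, was listed at 12.88 FPKM in *Dnmt1*-WT and 4.12 FPKM in *Dnmt1*-KO, a ratio of 0.320. It encodes a protocadherin that binds the adaptor protein DAB1. Its share of the non-clustered sum was 17.1% in *Dnmt1*-WT and 6.72% in *Dnmt1*-KO. *Pcdh10* and *Pcdh17*, which act in the growth of axons, stood at similar levels in *Dnmt1*-WT, 10.22 and 9.6 FPKM, and at 8.22 and 7.91 FPKM in *Dnmt1*-KO, with ratios of 0.804 and 0.824. *Pcdh19*, the X-linked gene altered in a form of epilepsy in girls, was listed at 0.81 and 1.01 FPKM. *Pcdh8*, a gene of the embryonic mesoderm and of synapses, was listed at 0 in *Dnmt1*-WT but at 0.03 FPKM in *Dnmt1*-KO, the lowest value above 0 in the table.

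The remaining non-clustered genes belong to neither delta group. *Pcdh20*, on the minus strand of chromosome 14 from 88464743 to 88471396, was listed at 2.57 and 1.34 FPKM and had the second-lowest non-clustered ratio, 0.521. *Pcdh15*, whose protein forms the tip links of hair cells in the inner ear, was at 0.78 and 1.14 FPKM, a ratio of 1.46. *Pcdh12*, a protocadherin of endothelial cells, was listed at 1.72 FPKM in *Dnmt1*-WT and 1.67 FPKM in *Dnmt1*-KO. All 8 endothelial markers were higher in the *Dnmt1*-KO library, against 50.3% of all genes, and 7 of them were at least doubled, against 11.8%, and their summed FPKM was 54.7 and 149. *Pcdh12* thus differed by a ratio of 0.971 beside a ratio of 2.72 for the marker sum.

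*Pcdh18* and *Pcdh20* had the lowest non-clustered ratios, and that of *Pcdh10*, 0.804, was near the non-clustered median of 0.824. The start regions of *Pcdh18*, *Pcdh10* and *Pcdh20* are therefore shown, and because CpG sites are what DNMT1 methylates. Each is the RefSeq window on GRCm38.p6 from 250 bases before to 50 bases after the start, 5′ to 3′ on the strand of the gene, with every CpG in capitals. They lie on the minus strand at chr3:49757267-49757566, the plus strand at chr3:45378148-45378447 and the minus strand at chr14:88471347-88471646. Such windows were found for 9 of the non-clustered members.
Pcdh18: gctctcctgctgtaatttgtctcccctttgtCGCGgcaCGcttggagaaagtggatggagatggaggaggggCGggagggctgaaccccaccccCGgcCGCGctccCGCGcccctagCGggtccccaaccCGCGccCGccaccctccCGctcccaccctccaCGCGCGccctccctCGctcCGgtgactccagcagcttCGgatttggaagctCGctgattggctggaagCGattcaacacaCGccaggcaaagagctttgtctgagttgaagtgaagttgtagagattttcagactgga
Pcdh10: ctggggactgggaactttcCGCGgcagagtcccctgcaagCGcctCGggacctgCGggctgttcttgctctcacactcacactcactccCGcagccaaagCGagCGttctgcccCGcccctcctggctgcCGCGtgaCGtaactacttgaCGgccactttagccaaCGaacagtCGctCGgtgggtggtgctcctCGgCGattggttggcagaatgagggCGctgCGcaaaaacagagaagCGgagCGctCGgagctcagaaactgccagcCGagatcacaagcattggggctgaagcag
Pcdh20: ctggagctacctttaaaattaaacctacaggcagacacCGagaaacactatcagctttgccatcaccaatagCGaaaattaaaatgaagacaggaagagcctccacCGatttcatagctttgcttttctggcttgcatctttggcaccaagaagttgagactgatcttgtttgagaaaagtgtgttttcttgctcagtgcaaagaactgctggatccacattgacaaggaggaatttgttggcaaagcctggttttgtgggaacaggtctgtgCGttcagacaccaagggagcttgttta

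The *Pcdh18* window holds 23 CpG and that of *Pcdh10* 24, more than 78.5% and 80.0% of all 32851 windows, whose median is 7. The *Pcdh20* window holds 4. The letters CG read the same on both strands, and 94.6% of all windows hold at least 1. The other windows held 26 CpG for *Pcdh17*, 18 for *Pcdh19*, 14 for *Pcdh8*, 11 for *Pcdh7* and 8 for *Pcdh15*, and *Pcdh9* has windows of 18 and 19. Methylation of these regions was not analysed here.

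The table also gives the number of transcript variants found for each gene. All 56 clustered genes above 0 in both libraries had the same number in each, 1 for 54 of them and 2 for *Pcdhb14* and *Pcdhb19*. Of all genes above 0 in both, 13.6% had fewer in *Dnmt1*-KO and 12.5% more. A gene with 1 variant in *Dnmt1*-WT cannot have fewer in *Dnmt1*-KO while above 0. Among the 11 non-clustered genes, 2 had fewer variants in *Dnmt1*-KO and 1 had more, against 13.6% and 12.5% of all genes. The largest difference was that of *Pcdh9*, with 4 variants in *Dnmt1*-WT and 1 in *Dnmt1*-KO. Of the 1099 genes with 4 variants in *Dnmt1*-WT, 6, or 0.546%, had a single one in *Dnmt1*-KO. This share was chosen to match *Pcdh9*, the member with the largest difference. The *Dnmt1*-KO library had fewer mapped reads, and the effect of depth on the variant counts was not tested. *Pcdh19* had 3 and 2 variants, and *Pcdh15* 3 and 5. The variants are not named in the table.

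Genes that act on the clusters in other tissues were compared through a list of 24 regulators of chromatin and DNA methylation. *Trim28*, a corepressor, was the most abundant, at 54.13 and 50.99 FPKM. All but 1 had a lower FPKM in *Dnmt1*-KO, and all but 4 with upper quartile scaling, against 49.1% of all genes. The list includes *Dnmt1* itself, which is deleted by design and is counted among the lower genes. Their median ratio was 0.773, and 1 of the 24 was at most halved, near the 4.98% of all genes. *Ctcf*, whose protein marks the chosen promoters, was listed at 19.3 FPKM in *Dnmt1*-WT and 13.45 FPKM in *Dnmt1*-KO, a ratio of 0.697. The cohesin genes *Rad21* (48.86 and 37.45 FPKM), *Smc3* (21.3 and 14.8 FPKM), *Stag1* (14.52 and 9.98 FPKM) and *Stag2* (29.57 and 16.64 FPKM) were lower too, as was the cohesin loader *Nipbl* (13.13 and 7.84 FPKM). Of the de novo DNA methyltransferases, *Dnmt3a* stood at 22.7 and 18.21 FPKM, while *Dnmt3b*, which methylates promoters of the clusters in the embryo, was low at 0.7 and 0.69 FPKM. *Smchd1*, a repressor of the clusters, was at 9.04 and 7.92 FPKM. The halved gene was *Tet1*, a demethylating oxygenase, at 4 and 1.71 FPKM. *Uhrf1*, which brings DNMT1 to newly made DNA, was the only gene of the list above 1 without scaling, at 3.62 and 5.78 FPKM.

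**Figure D5:**
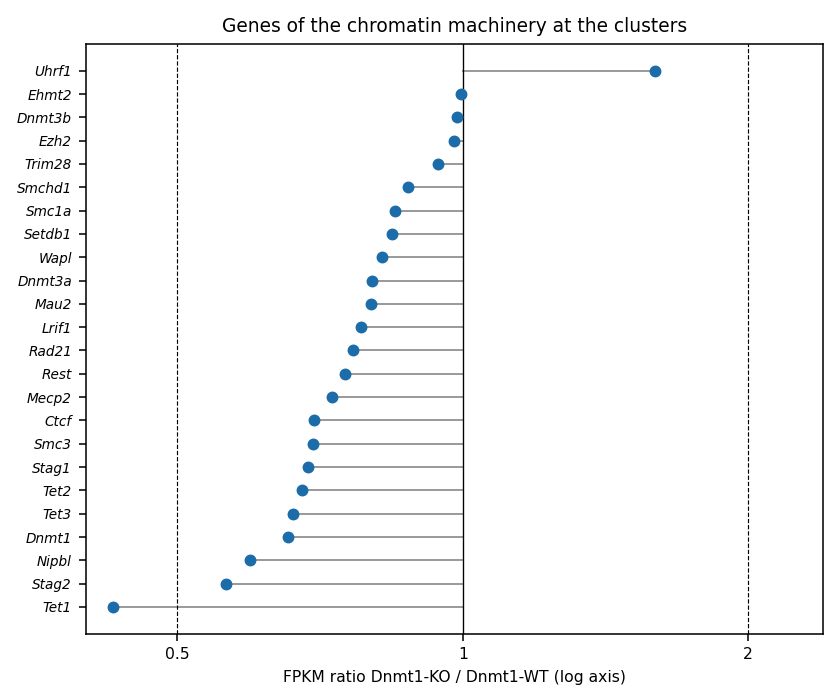
Ratio of *Dnmt1*-KO to *Dnmt1*-WT FPKM, on a log axis, for the 24 listed regulators of the protocadherin clusters, sorted by ratio. Dashed lines mark 0.5 and 2, *Tet1* lies below 0.5, and *Uhrf1* is the only gene to the right of 1, with 3 more on that side under upper quartile scaling.

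Genes next to the clusters were taken as the 10 nearest listed protein-coding genes on each side that are not protocadherins, and the 2 between the clusters. *Pcdh1* and *Pcdh12*, which lie among those after the *Pcdhg* cluster, were left out as members. *Slc25a2*, between the clusters, was listed at 0 in both libraries, and *Taf7*, its neighbour and a subunit of the general transcription factor TFIID, was at 5.11 and 3.87 FPKM. Of the 21 neighbours above 0 in both, 13 were higher in *Dnmt1*-KO and 8 lower, against 50.3% and 49.1% of all genes, with a median ratio of 1.05. The 2 at least doubled, against 11.8% of all genes, were *Cd14*, a receptor gene of macrophages, at 1.2 and 4.86 FPKM, and *Arap3*, at 1.8 and 3.87 FPKM. No neighbour was at most halved, against 4.98%.

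The cell types of the muscle wall were followed by their markers. Over all genes 50.3% were higher in *Dnmt1*-KO, 49.1% lower and 11.8% at least doubled. Of 11 enteric neuron markers 8 were higher in *Dnmt1*-KO, or 7 when scaled to the FPKM sum, and their summed FPKM was 821 and 987. The 1 at least doubled was *Vip*, at 37.12 and 80.24 FPKM. *Elavl4*, an RNA-binding protein gene of neurons, was at 27.39 and 22.86 FPKM. Of 7 enteric glia markers 5 were higher, or 4 when scaled to the FPKM sum, with sums of 75.1 and 107 FPKM, of which *Gfap* gave 4.78 and 35.36 FPKM. Of 5 fibroblast markers 4 were higher, and 1 of them, *Col1a1*, was at least doubled, at 700.41 and 1517.78 FPKM. The sums of the fibroblast markers were 2497 and 3921 FPKM, although *Pdgfra* among them was at 68.95 and 40.72 FPKM. All 3 markers of interstitial cells of Cajal were lower, or 2 of 3 with upper quartile scaling, with sums of 124 and 104 FPKM, while those of 4 mesothelial markers were 242 and 239 FPKM. Of 6 leukocyte markers 5 were higher, 3 of them at least doubled, and *Cd3e*, of T cells, was listed at 0 in *Dnmt1*-WT but at 0.62 FPKM in *Dnmt1*-KO, with sums of 25.7 and 58.3 FPKM. Of 6 enterocyte markers 5 were higher, 2 of them at least doubled, and *Krt20* was lower at 7.29 and 5.52 FPKM. Their sums were 77.0 and 148 FPKM, of which *Fabp2* alone gave 38.79 and 85.06 FPKM. No marker list was at 0 in either library, and the part of these cell types in the protocadherin values was not tested.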

How the data were processed

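The authors isolated RNA from jejunal tunica muscularis, prepared TruSeq RNA libraries and mapped the reads to GRCm38/mm10. The submitters' processing notes name TopHat 1.4.1 and Cufflinks 2.0.2. The authors' deposited table gives FPKM for each gene with 2 decimals, and, as a separate number, how many transcript variants were found. Its column of *Dnmt1*-KO to *Dnmt1*-WT ratios was not used. The paper gives the mapped reads of each mRNA library, with more for *Dnmt1*-WT than for *Dnmt1*-KO. Counts per gene are not in the deposited table, and no counting interval was computed.

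Genes, coordinates and exons came from GENCODE M21, in which all 70 members were found, and start regions came from RefSeq. This annotation names 2 genes *Pcdha11*, and RefSeq positions showed the first to be *Pcdha10*. A plain FPKM ratio was computed for genes above 0 in both libraries. Medians of log2 ratios used FPKM + 0.1, except the median used for centring, which was taken over plain ratios. No test was made, since each genotype has 1 library. Genes were named by a rule: in each cluster, members reaching 1 FPKM in either library, the highest in each library, the 3 highest and 3 lowest ratios among members of at least 0.1 FPKM, members above 0 in 1 library only and C-type isoforms, and in related lists the doubled, halved, most abundant and defining genes. *Pcdha2*, *Pcdha4*, *Pcdha6*, *Pcdhgb8*, *Pcdh11x* and list genes named for their role alone were picked with their values known. The members and lists were chosen with earlier results of these data known. Alternatives concerned scaling, pseudocount, filters, fold and detection limit. Counting past a fold was run on simulated data with planted changes, which checked the code and not the counts given here. Python 3.11.15, numpy 2.4.6, pandas 2.3.3 and matplotlib 3.10.9 were used.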

Additional observations from a re-analysis of the deposited data

How the results depend on the processing

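Of 66 alternative values, 46 kept their direction and stayed within 1.5 times the value given, for counts, or 1.1 times, for ratios. The count of members at least doubled, 2, became 4 with median centring or upper quartile scaling, 0 with a pseudocount of 0.1 or 1 FPKM, a fold of 3 or members of at least 1 FPKM only, and 12 with a fold of 1.5. The count at most halved, 3, became 6 with scaling to the FPKM sum, 1 with a pseudocount of 1 FPKM and 11 with a fold of 1.5. The median log2 ratio of *Pcdha* was 0.24 and turned to -0.45 among members of at least 1 FPKM, which left 2 isoforms. That of *Pcdhb* was -0.28, and became -0.10 with a pseudocount of 1 FPKM and -0.57 among members of at least 1 FPKM. The ratio of summed FPKM of *Pcdhg*, 0.985, turned to 1.01 with median centring, 1.03 with upper quartile scaling and 1.15 without *Pcdhgc3*, and that of the non-clustered genes, 0.815, moved to 0.704 without *Pcdh1*. With detection at 0.1 FPKM, 0 members were found in *Dnmt1*-KO only, and at 1 FPKM 3 were found in *Dnmt1*-KO only and 4 in *Dnmt1*-WT only. Scaling to the FPKM sum shifted log2 ratios by -0.10 before any pseudocount, and by less with one. No paired analysis was possible because each genotype has 1 library, and depth per gene is unknown.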

Other observations

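Other members of the cadherin superfamily were described in the same libraries. Of the 22 listed genes named Cdh with a number, 21 were above 0 in both, with 9 higher and 12 lower in *Dnmt1*-KO, against 50.3% and 49.1% of all genes. The 4 at least doubled, against 11.8% of all genes, were *Cdh17* (2.98 and 9.52 FPKM), *Cdh1* (1.45 and 3.51 FPKM), *Cdh5* (13.96 and 28.37 FPKM) and *Cdh26* (0.13 and 0.39 FPKM). *Cdh1* and *Cdh17* are cadherins of the epithelium and *Cdh5* is that of endothelium. The most abundant, the mesenchymal cadherin *Cdh11*, was at 57.97 and 40.47 FPKM, and *Cdh20* and *Cdh12* were at most halved, against 4.98% of all genes.

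A list of 32 partners of protocadherins and related large cadherins had 30 genes in the table, with *Ppp1ca*, a phosphatase subunit, the most abundant in *Dnmt1*-WT (109.06 FPKM) and *Brk1*, of the WAVE complex, in *Dnmt1*-KO (122.07 FPKM). Of them, 17 were higher and 13 lower in *Dnmt1*-KO, or 12 and 18 when scaled to the FPKM sum, against 50.3% and 49.1% of all genes, with a median ratio of 1.01. At least doubled was 1 and at most halved were 2, against 11.8% and 4.98% of all genes. The large cadherins *Fat4*, a receptor of tissue growth and polarity, at 13.33 and 5.43 FPKM, and *Fat3*, at 1.52 and 0.44 FPKM, were at most halved. *Dchs1*, the ligand of *Fat4*, was at 12.43 and 10.3 FPKM. *Cdhr5*, a cadherin of the enterocyte brush border, was at least doubled, at 8.46 and 18.45 FPKM. The WAVE complex genes *Cyfip1* and *Cyfip2*, whose proteins bind the tails of several protocadherins, were at 12.02 and 12.29 FPKM and at 13.01 and 13.05 FPKM, and *Ptk2*, the focal adhesion kinase, at 19.27 and 23.47 FPKM.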
